A study of Mus musculus with 4 samples.

Results

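The Rab family of small GTPases was examined in dendritic cells (DCs), the antigen-presenting cells that take up, digest and display foreign protein, sorted from mouse spleen. Its members were the genes whose symbol in the array's annotation is Rab followed by a number and, in most, a letter. There were 59 such genes among 18193 named genes on the array, measured by 132 probe sets, each a group of short oligonucleotides against 1 transcript. A gene with several probe sets was read at the brightest of them, by mean log2 signal. Of the 59 genes, 49 (83.1%) exceeded a background level of 55.7, called the floor, on 1 or more arrays, as did 12608 (69.3%) of all genes.

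RNA of 4 subsets was hybridised, with 1 Affymetrix array each: CD8+CX3CR1+, CD8+CX3CR1-, CD4+ and DN DCs, the last being the common short name for DCs that lack both CD4 and CD8. All came from C57BL/6 mice of the genotype Cx3cr1gfp/+, in which green fluorescent protein replaces 1 copy of the chemokine receptor gene Cx3cr1, so every subset, including those used here as references, carried 1 working copy. Cells high in CD11c were sorted, and every sample is labelled as not treated with BMP4. The sources used here do not state the mice's age, sex or number, or any pooling of cells. A characteristic field names 2 arrays differently from their titles (the CD8+CX3CR1- array as CD8+CX3CR1+ and the DN array as CD4+), and titles were followed. Cd8a signal was 2530 and 4742 on the CD8+ arrays, 18.7 on CD4+ and 130 on DN. Cx3cr1 was 894 on CD8+CX3CR1+ against 97.3 on CD8+CX3CR1-, and Cd4 was 564 on CD4+ against 21.1 to 93.9 elsewhere.

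With 1 array per subset there is no spread between replicates, so no test was possible and each difference describes 2 arrays. In such bulk samples, fewer cells of a type and less RNA per cell cannot be told apart. On the CD4+ array the 3' probe set of Gapdh exceeded the 5' one by 11.8-fold, against 7.56-fold to 8.98-fold elsewhere, a ratio that rises as RNA breaks down. The same ratio for actin was 2.86 on CD4+, 2.32 on CD8+CX3CR1+, 2.23 on DN and lowest, at 1.79, on CD8+CX3CR1-. The CD4+ array also had the most probe sets above the floor (47.6%, against 41.0% to 42.5%). The part of RNA quality in differences against CD4+, or between any other arrays, was not tested. The number of arrays limits the precision.

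Rab proteins are molecular switches of membrane traffic. Bound to GTP and anchored by lipid tails, each marks the surface of particular vesicles or organelles and recruits effectors such as tethers, motors and lipid kinases; exchange factors switch them on and GTPase-activating proteins switch them off. In DCs they steer antigen through endosomes, phagosomes and lysosomes, and they guide MHC molecules and Toll-like receptors to the compartments where these act. Members are described below from the endoplasmic reticulum to the cell surface, and signals of different genes are not compared with each other, since each probe set has its own affinity.

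The promoters of 3 members are shown because their signal was highest on the CD8+CX3CR1- array and lower on the 3 others. The windows run from 250 bases before to 50 bases after the start in RefSeq (build GRCm38.p6). Those of Rab32, Rab19 and Rab11a lie at chr10:10558158-10558457 (minus strand), chr6:39381103-39381402 (plus strand) and chr9:64737707-64738006 (minus strand). Capitals mark matches, on either strand, to 6 short motifs that were searched: the tandem IRF core GAAANNGAA, the Ets-IRF composite core GGAANNGAA, the Ets core AGGAAGT known from PU.1 sites, the AP-1 site TGANTCA, the CCAAT box and the TATA box core TATAAA.

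Rab32: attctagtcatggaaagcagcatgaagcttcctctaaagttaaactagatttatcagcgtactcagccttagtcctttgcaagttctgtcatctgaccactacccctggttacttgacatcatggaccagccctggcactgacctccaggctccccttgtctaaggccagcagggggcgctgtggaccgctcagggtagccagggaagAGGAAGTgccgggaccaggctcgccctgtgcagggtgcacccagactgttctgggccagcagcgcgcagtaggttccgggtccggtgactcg

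Rab19: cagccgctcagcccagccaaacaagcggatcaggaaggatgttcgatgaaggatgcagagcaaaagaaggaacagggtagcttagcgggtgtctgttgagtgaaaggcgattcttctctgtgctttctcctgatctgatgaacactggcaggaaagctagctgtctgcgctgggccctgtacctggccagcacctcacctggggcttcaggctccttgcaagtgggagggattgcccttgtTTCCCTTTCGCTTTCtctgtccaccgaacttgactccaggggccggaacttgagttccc

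Rab11a: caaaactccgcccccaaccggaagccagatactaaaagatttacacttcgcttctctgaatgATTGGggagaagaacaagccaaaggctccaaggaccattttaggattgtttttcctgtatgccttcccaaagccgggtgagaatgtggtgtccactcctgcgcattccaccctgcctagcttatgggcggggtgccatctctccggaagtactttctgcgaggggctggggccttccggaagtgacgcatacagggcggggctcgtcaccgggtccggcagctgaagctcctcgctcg

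The Rab32 window held 1 match to the Ets core, the Rab19 window 2 overlapping matches to the tandem IRF core, and the Rab11a window 1 to the CCAAT box. The motifs are common: of 32851 windows of 300 bases, 9.35% held the Ets core, 8.56% the tandem IRF core, 8.24% the Ets-IRF core, 7.81% the AP-1 site, 37.4% the CCAAT box and 13.6% the TATA box core. The Ets core stood in 6 of 60 windows of members, the tandem IRF core in 3, the composite core in 6, the AP-1 site in 3, the CCAAT box in 26 and the TATA box core in 4. Windows on 1 chromosome were left out of the search, for members and for the background alike. Among the rest, windows were matched by symbol for 48 of the 59 members. A match is only these letters in this window and says nothing of a factor's binding.

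Most Rab genes differed little between the subsets. The range, meaning the highest over the lowest signal with any signal below the floor set to the floor, had a median of 1.73-fold over the 49 detected members and 1.61-fold over all detected genes. It reached 4-fold for 3 members, Rab7b, Rab32 and Rab19 (6.12%, against 4.66% of all detected genes). It reached 2-fold for 19 (38.8%, against 28.4%). Of these 19, 10 (52.6%) were highest on the CD8+CX3CR1- array, against 30.5% of the 3580 genes with such a range. CD8+CX3CR1+ was the highest for 3 members (24.8% of genes), as were CD4+ for 3 (31.2%) and DN for 3 (13.4%). The CD4+ array alone was lowest for 8 of the 19. One of the 10, Rab13, was counted as detected through the CD8+CX3CR1- array only. Without the CD4+ array, an alternative chosen after the data were seen, 13 members had a 2-fold range and 7 of them (53.8%) were highest on CD8+CX3CR1-, against 37.4% of all genes with such a range.

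Among the Rabs of the endoplasmic reticulum and Golgi, 14 of 16 were detected and 7 of these had a 2-fold range. Rab43, a Golgi Rab that has been linked to cross-presentation in CD8+ DCs, had a signal of 2840 on CD8+CX3CR1+, 5846 on CD8+CX3CR1-, 2316 on CD4+ and 3323 on DN. It was thus highest on CD8+CX3CR1-, by 2.06-fold over CD8+CX3CR1+, 2.52-fold over CD4+ and 1.76-fold over DN, and both of its further probe sets were highest there too. Rab19, also of the Golgi, was 68.0, 311, 221 and 112 in the same order of arrays, so that CD8+CX3CR1- and CD4+ were the high pair. Its 4.58-fold difference between the CD8+ arrays rests on 1 probe set.

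Rab2a and Rab2b, close paralogues that act between the endoplasmic reticulum and Golgi, differed in the place of CD8+CX3CR1-. Rab2a was 2237 on CD8+CX3CR1+, 3847 on CD8+CX3CR1-, 1849 on CD4+ and 2264 on DN, while Rab2b was 341, 237, 388 and 492. CD8+CX3CR1- was therefore the highest array for the first and the lowest for the second. For Rab2a the 2 further probe sets that could be read gave log2 differences of -0.51 and -0.02 between CD8+CX3CR1- and CD4+, against 1.06 at the probe set used, so its order depends on the probe set. One further probe set of Rab2b was highest on CD4+ (153) and another on DN (95.1).

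Rab33b, a Golgi Rab whose effectors include the autophagy protein Atg16l1, was 831 on CD8+CX3CR1+, 591 on CD8+CX3CR1-, 282 on CD4+ and 382 on DN. Both CD8+ arrays lay above the other 2, and CD8+CX3CR1+ was 2.95-fold above CD4+. Rab39, a Rab of the Golgi and of late compartments, was 83.9, 148, 68.4 and 19.7, the last under the floor, so CD8+CX3CR1- was at least 2.66-fold above DN.

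Rab6b, a Golgi Rab best known from neurons, was 189 on CD8+CX3CR1+, 298 on CD8+CX3CR1-, 741 on CD4+ and 271 on DN. CD4+ stood apart, by 3.92-fold from the lowest. The further probe set with the next highest signal read 291, 45.3, 141 and 34.8, which puts CD8+CX3CR1+ on top, and all 3 further probe sets reversed the order of CD8+CX3CR1+ and CD4+. The remaining detected members of this group, Rab1a, Rab1b, Rab6a, Rab18, Rab30, Rab34 and Rab36, had ranges under 2-fold; of these Rab1a, which starts transport out of the endoplasmic reticulum, was 1136 on CD4+ and 1710 to 2165 elsewhere.

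**Figure D1:**
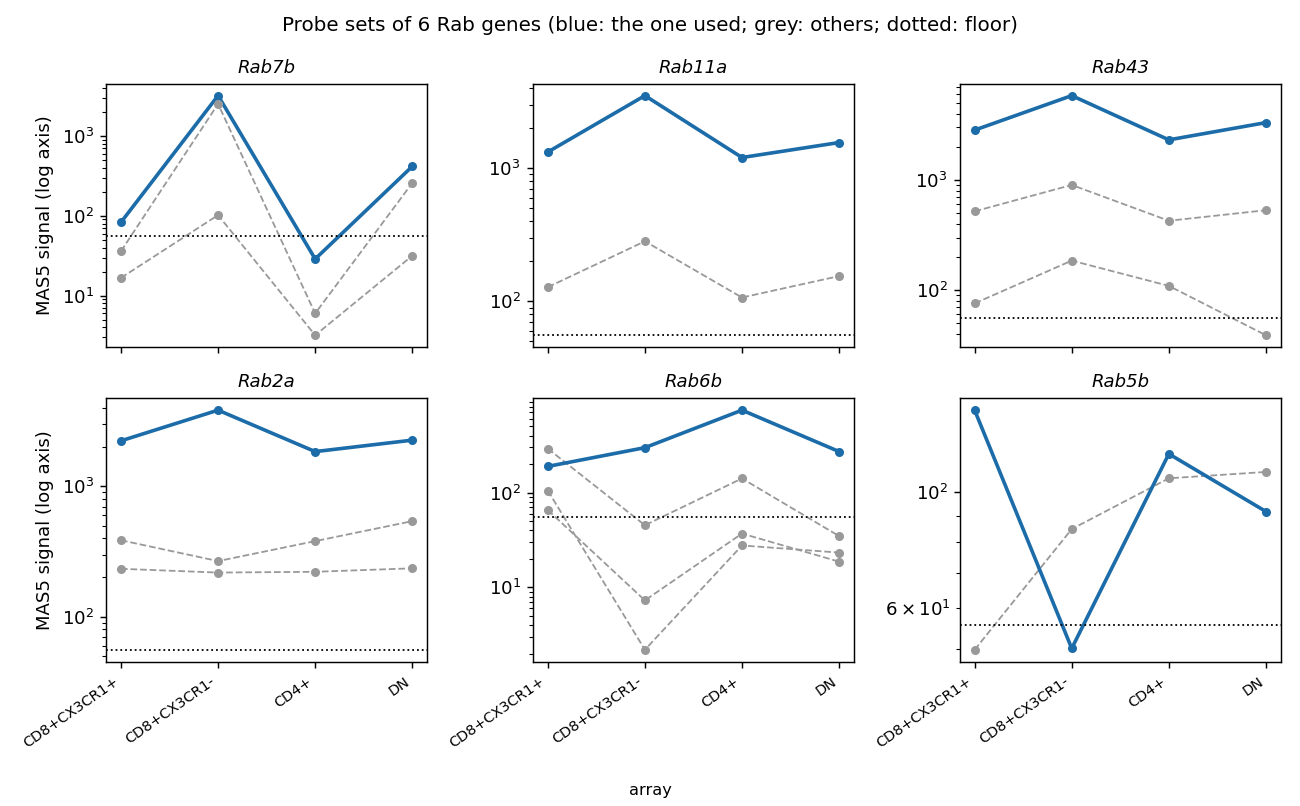
MAS5 signal (log axis) on the 4 arrays for the probe sets of 6 Rab genes above the floor (55.7, dotted) on 1 or more arrays; the blue line is the probe set used, grey lines are the others. The probe sets of Rab7b, Rab11a and Rab43 all peak on CD8+CX3CR1-, while those of Rab2a, Rab6b and Rab5b give different orders.

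All 7 Rabs of early endosomes and phagosomes were detected, and 2 had a 2-fold range. Rab5 proteins drive the fusion of early endosomes. Rab5a was 380 on CD8+CX3CR1+, 585 on CD8+CX3CR1-, 267 on CD4+ and 503 on DN. Rab5b was 143, 50.2, 118 and 91.6, with CD8+CX3CR1- under the floor. CD8+CX3CR1- was thus the top array for Rab5a and the bottom one for Rab5b, although the further probe set of Rab5b read 84.8 there and 49.9 on CD8+CX3CR1+. Rab5c was above the floor on the CD8+ arrays only, at 96.3 and 57.5, the latter under the CD8+CX3CR1- array's own background percentile of 62.6. Rab20, a Rab of maturing phagosomes, was above it on CD4+ (92.0) and DN (74.1) only. Rab21, Rab22a and Rab31 had ranges of 1.31-fold, 1.40-fold and 1.21-fold.

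Of 9 Rabs of recycling endosomes, 7 were detected and 1 had a 2-fold range. This was Rab11a, the marker Rab of the recycling compartment, from which MHC class I molecules can be supplied to phagosomes. Its signal was 1326 on CD8+CX3CR1+, 3521 on CD8+CX3CR1-, 1206 on CD4+ and 1563 on DN, which placed CD8+CX3CR1- 2.66-fold, 2.92-fold and 2.25-fold above the other arrays. Its second probe set had the same top array, at 283 against 107 to 155. Rab11b, its paralogue, was 313, 382, 245 and 281, also highest on CD8+CX3CR1- and lowest on CD4+ but within 1.56-fold. Rab4b, of rapid recycling, was 929, 1285, 875 and 836. Rab14 and Rab35, which act in endosome recycling, had ranges of 1.51-fold and 1.41-fold. Rab15 and Rab25 were above the floor on 2 arrays and 1 array, at 103 and 85.5 at most.

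Rab7b had the widest range among the members, and it belongs to the Rabs of late endosomes and lysosomes. It acts between late endosomes and the trans-Golgi and has been linked to the handling of Toll-like receptors. Its signal was 82.9 on CD8+CX3CR1+, 3191 on CD8+CX3CR1-, 28.8 on CD4+, which is under the floor, and 415 on DN. DN thus stood between: 7.68-fold below CD8+CX3CR1-, but 5.01-fold above CD8+CX3CR1+ and at least 7.45-fold above CD4+. The second probe set gave 2511 on CD8+CX3CR1-, 257 on DN and values under the floor on the other 2 arrays. With probe sets averaged, one of which passed the floor on CD8+CX3CR1- alone, CD8+CX3CR1+ and CD4+ were both under the floor. Their log2 difference from DN, -1.43 for both, is therefore a bound. DN was higher by at least that much, and the bound itself is short of 4-fold. In contrast Rab7, the general Rab of late endosomes and lysosomes, stayed within 1.55-fold, at 1876, 2901, 1963 and 2093. Rab9, which returns receptors from late endosomes to the Golgi, had a range of 1.36-fold, and Rab24 and Rab29 had ranges of 1.77-fold and 1.28-fold. Rab12, which sends recycling cargo to lysosomes, was 77.6, 131, 242 and 202. Its high arrays were CD4+ and DN, and its second probe set also passed the floor on those arrays only.

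Rab32, a Rab of lysosome-related organelles known from melanosomes and from defence against intracellular bacteria, followed Rab7b in part. It was 41.1 on CD8+CX3CR1+, under the floor, 971 on CD8+CX3CR1-, 184 on CD4+ and 285 on DN. CD8+CX3CR1- was the high array, 5.28-fold above CD4+ and 3.40-fold above DN, and CD8+CX3CR1+ the low one, at least 5.12-fold below DN. With the floor at the 95th percentile, the log2 difference of CD8+CX3CR1+ from DN was -1.96. This too is a bound, just short of 4-fold, since CD8+CX3CR1+ was under the floor. Where Rab7b was lowest on CD4+, Rab32 was at least 3.30-fold higher on CD4+ than on CD8+CX3CR1+. Rab32 has 1 probe set on the array, so that its values have no check from a further one. Rab38, its closest paralogue, read 629, 448, 557 and 624, a range of 1.41-fold with CD8+CX3CR1- lowest, at a probe set of a kind that can cross-hybridise. The further one gave another order, 124, 142, 151 and 115, with CD4+ highest and DN lowest.

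The arrays of Rab7b took the same order as the summed signal of 8 markers of CD8 DCs (cDC1), which was 25191 on CD8+CX3CR1-, 8565 on DN, 5214 on CD8+CX3CR1+ and 3979 on CD4+. That order rests on Irf8: the other 7 summed to 11906 on CD8+CX3CR1-, 3805 on CD8+CX3CR1+, 3718 on DN and 3363 on CD4+. All 8 markers passed the floor on CD8+CX3CR1- and 6 did on DN, where Irf8 was 4847 and Tlr3 214 while Xcr1 (52) and Itgae (33) were under it. Cd24a was higher on CD8+CX3CR1+ (2280) than on DN (1509), and Batf3 (2678) and Ly75 (141) were highest on CD4+. On CD8+CX3CR1+ 6 passed, and on CD4+ 7. The part of a mixture of DC types in the DN values of Rab7b and Rab32 was not tested. For CD4 and CD11b DCs (cDC2), the sum of 6 markers was 706 on CD8+CX3CR1- and 11534 to 16449 on the other arrays. Most of each sum came from Csf1r (498 on CD8+CX3CR1- and 9142 to 13894 elsewhere). Each of the 6 was lowest on CD8+CX3CR1-, but Esam differed little between the CD8+ arrays (167 and 135). Itgam passed the floor on DN only (65.1). Of other spleen cells, 7 genes of red pulp macrophages summed to 860 on CD8+CX3CR1- and 2061 to 4195 elsewhere. Most of the sums on CD4+ and DN came from Adgre1 (3068 and 1692, against 143 on CD8+CX3CR1-). Vcam1 alone of the 7 was highest on CD8+CX3CR1- (513), and 4 of the 7 passed the floor on both that array and DN. All 7 passed it on CD8+CX3CR1+ and CD4+. C1qa, C1qb and C1qc were 197, 742 and 185 on CD8+CX3CR1+ and 203, 358 and 206 on CD4+. They were 27.9, 60 and 6.6 on CD8+CX3CR1- and 40, 70.2 and 14.1 on DN. Cd5l was 177 on CD8+CX3CR1+ and 148 on CD4+, against 34.7 on CD8+CX3CR1- and 55.3 on DN. The part of macrophages in the Rab values was not tested. The 5 genes of plasmacytoid DCs summed to 676 to 4737, with CD8+CX3CR1+ highest. Sums were 407 to 1362 for 3 genes of monocytes, 212 to 492 for 3 of B cells and 35.1 to 129 for 3 of T cells. They were 92.8 to 210 for 3 of NK cells, 107 to 207 for 4 of neutrophils, and 164 to 271 for 5 of erythroid cells and platelets.

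The 4 Rabs of exocytosis were all detected and 3 had a 2-fold range. Rab8a and Rab8b both carry cargo from the Golgi to the plasma membrane. Rab8a was 587 on CD8+CX3CR1+, 368 on CD8+CX3CR1-, 828 on CD4+ and 669 on DN, and Rab8b was 1083, 1580, 790 and 1396. The paralogues were mirrored between the CD8+CX3CR1- and CD4+ arrays, Rab8a 2.25-fold lower and Rab8b 2-fold higher on CD8+CX3CR1-. A second probe set of Rab8a gave the same direction (51.6 against 115), and Rab8b had no other above the floor. Rab13, known from epithelial tight junctions, was 186 on CD8+CX3CR1- and 4.7 to 14.2 elsewhere, so CD8+CX3CR1- was at least 3.33-fold above each. Rab10 was 1344, 1580, 999 and 1440, with CD4+ lowest.

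Regulated secretion and lysosome-related organelles had 11 members, of which 7 were detected and, with Rab32, 4 had a 2-fold range. Rab27a, which docks secretory lysosomes and brings NADPH oxidase to DC phagosomes, was 137 on CD8+CX3CR1+, 87.4 on CD8+CX3CR1-, 13.4 on CD4+ and 159 on DN. CD4+ was the one array under the floor, at least 2.85-fold below DN. The further probe sets of Rab27a were under the floor on all arrays. Rab3d, of secretory granules, was 223, 112, 121 and 104, with CD8+CX3CR1+ alone high, but a further probe set was highest on CD4+ (186). Rab37, described in mast cell granules, was 97.4, 74.5, 124 and 160. Rab3a read 456, 445, 839 and 430 at a probe set open to cross-hybridisation, and its other probe set was under the floor throughout. Rab27b was above the floor on CD4+ only (65.5).

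In the group of other functions, Rab28 and Rab40c had ranges of 1.44-fold and 1.31-fold. At the probe sets used, Rab23, a regulator of Hedgehog signalling, and Rab42 were above the floor on CD4+ only, at 59.1 and 58.9. Both values are below the background percentile of 59.9 taken on that array alone. A further probe set of Rab23 was above the floor on DN only (69). The 10 members under the floor on all arrays, at every probe set they have, were Rab3b, Rab3c, Rab4a, Rab9b, Rab17, Rab26, Rab33a, Rab39b, Rab40b and Rab44, with signals of at most 50.5 at the probe sets used. Such a value does not show that a transcript is missing.

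**Figure D2:**
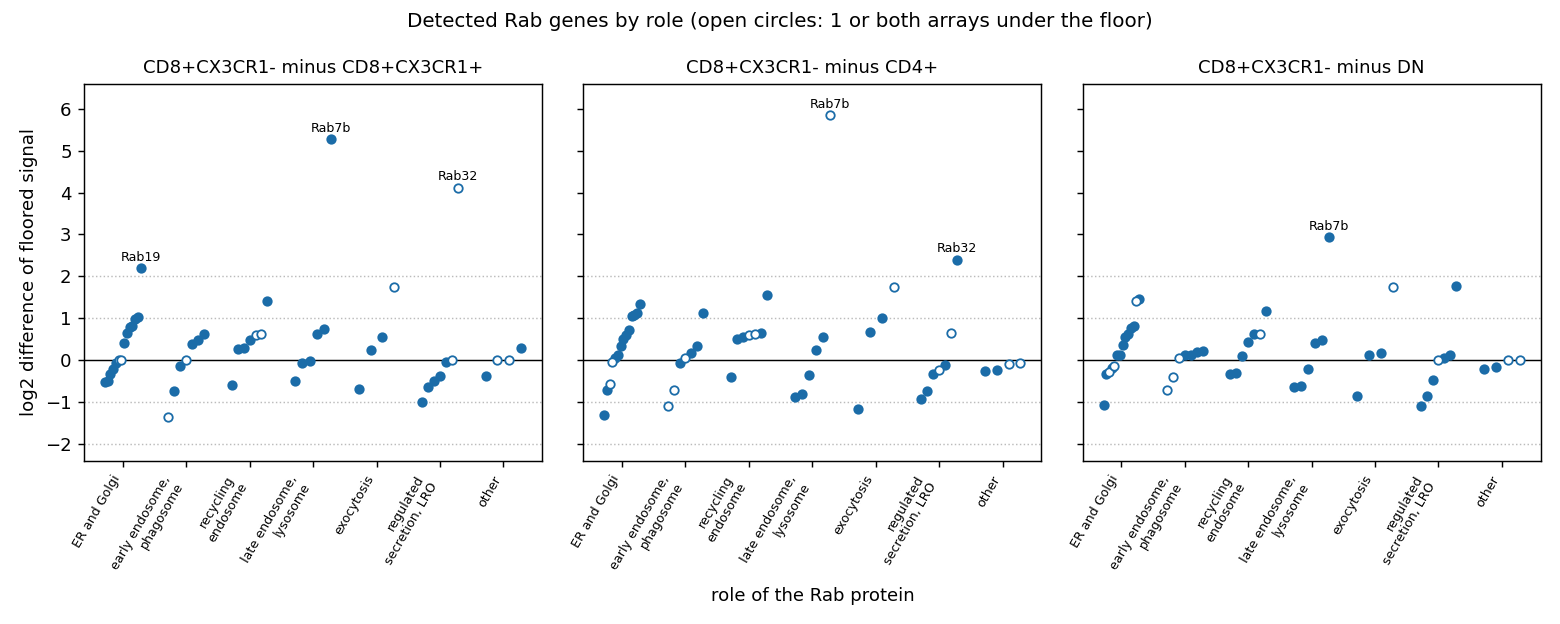
Log2 difference of the CD8+CX3CR1- array from each other array (y axis) for the 49 detected Rab genes, grouped by role (x axis); open circles have at least 1 array under the floor and dotted lines mark 2-fold and 4-fold. Rab7b is past 4-fold in all 3 panels (38.5-fold, at least 57.3-fold and 7.68-fold), Rab32 in 2 and Rab19 in 1.

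Between the CD8+ arrays, CD8+CX3CR1+ was at least 4-fold lower for 3 of the 49 detected members, Rab7b (38.5-fold), Rab32 (at least 17.4-fold) and Rab19, and higher for 0, while 2.82% of all detected genes differed by as much in either direction. At 2-fold, 6 were lower (12.2%, against 5.81% of genes), adding Rab11a, Rab13 and Rab43, and 1 was higher, Rab5b (2.04%, against 7.72%). The median log2 difference was 0.00 for the members and 0.00 for all detected genes, where a gene under the floor on both arrays counts as 0. After equal-median scaling the members' median was -0.26 and after quantile normalization -0.15, with all genes at 0.00 in both.

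CD8+CX3CR1- was at least 4-fold above CD4+ for 2 members, Rab7b and Rab32, and below it for 0 (4.08%, against 2.98% of genes either way). At 2-fold it was higher for 10, or 20.4%, where 6.78% of all genes were: Rab2a, Rab5a, Rab7b, Rab8b, Rab11a, Rab13, Rab32, Rab33b, Rab39 and Rab43. It was lower for 3, Rab5b, Rab6b and Rab8a (6.12%, against 9.11%). The median log2 difference of the members was 0.17, and that of all genes -0.01. The CD4+ array's higher Gapdh 3'/5' ratio stands beside this comparison, and its part was not tested. Scaling the arrays to an equal median added 0.35 to each log2 difference measured above the floor here, and left the median of all genes, floored ones included, at 0.15. The members past 2-fold became 12 higher and 0 lower, and the higher share of all calls went from 42.7% to 71.0%; after quantile normalization they were 8 and 2.

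CD8+CX3CR1- was at least 4-fold above DN for 1 member, Rab7b (2.04%, against 2.02% of genes either way). At 2-fold it was higher for 6, Rab7b, Rab11a, Rab13, Rab19, Rab32 and Rab39 (12.2%, against 4.75%), and lower for 2, Rab2b and Rab37 (4.08%, against 6.17%), or 6 and 1 under both other scalings. The median was 0.11, against 0.00 for all genes. DN and CD4+ each supply one of these comparisons with the same CD8+CX3CR1- array, so the comparisons are not independent.

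The other 3 pairs had 3 to 6 members 2-fold apart, against 7 to 13 in the pairs with CD8+CX3CR1-. All detected genes split the same way, so this contrast is not particular to Rab genes. Per direction, 2.93% to 4.89% of all genes were 2-fold apart in the other 3 pairs. In the pairs with CD8+CX3CR1- they were 4.75% to 9.11%. CD8+CX3CR1+ and CD4+ were 4-fold apart for 0 members (0.769% of genes); at 2-fold CD8+CX3CR1+ was higher for Rab27a and Rab33b (4.08%, against 4.47%) and lower for 4, Rab6b, Rab12, Rab19 and Rab32 (8.16%, against 4.89%). Equal-median scaling added 0.33 to log2 differences in this pair, with the median of all genes at 0.18, and moved the higher share of all calls from 47.8% to 81.2%. CD8+CX3CR1+ was at least 4-fold below DN for Rab7b and Rab32 (4.08%, against 0.412% of genes either way). At 2-fold it was lower for 3, adding Rab12 (6.12%, against 2.93%), and higher for Rab33b and Rab3d (4.08%, against 2.97%); the median was -0.15, against 0.00. CD4+ and DN were 4-fold apart for 1 member, Rab7b (2.04%, against 0.254% of genes). At 2-fold CD4+ was higher for Rab6b (2.04%, against 4.34%) and lower for Rab7b and Rab27a (4.08%, against 3.23%). In this pair equal-median scaling changed log2 differences by -0.28, with the median of all genes at -0.12, and gave 1 member higher and 5 lower, quantile normalization 2 and 2. With 49 members, each counts for about 2.04%, so shares of 1 or 2 genes say little beside the background.

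**Figure D3:**
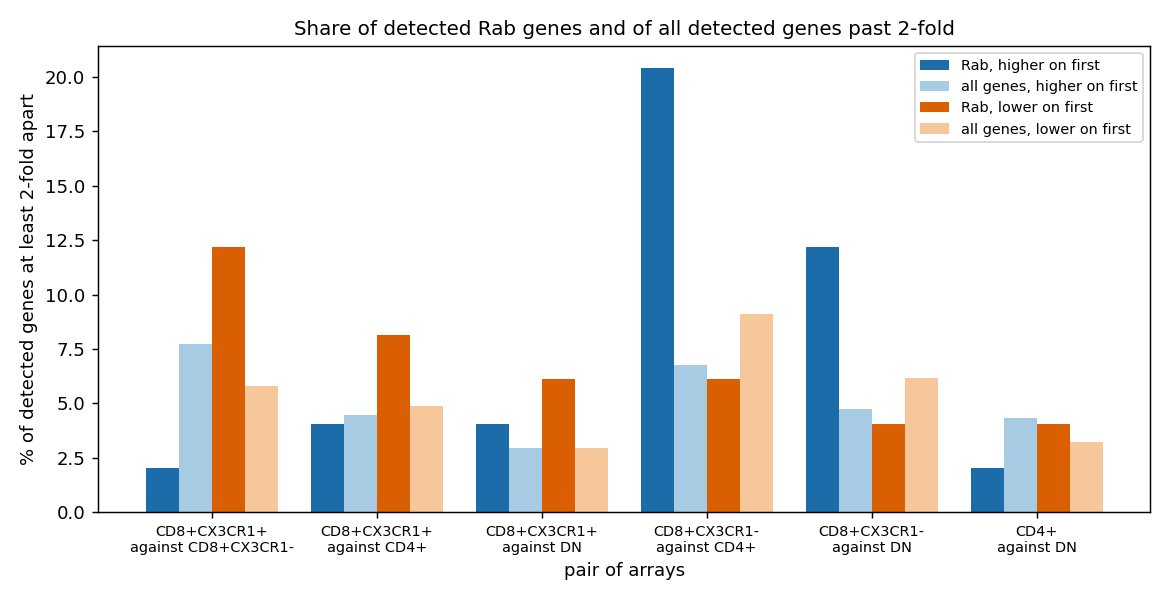
Percentage of the 49 detected Rab genes and of the 12608 detected genes at least 2-fold higher (blue) or lower (orange) on the first array of each pair; dark bars are Rab genes. The tallest bar is 20.4%, for Rab genes higher on CD8+CX3CR1- than on CD4+, beside 6.78% of all genes.

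The proteins that control or read Rabs were followed through a list of 139 genes, of which 131 are on the array and 121 were detected. Their ranges had a median of 1.67-fold, with 36 (29.8%, against 28.4% of all genes) past 2-fold and 3 (2.48%, against 4.66%) past 4-fold. All 3 were lowest on CD8+CX3CR1-. Dennd3, an exchange factor for Rab12, was 3023 on CD8+CX3CR1+, 102 on CD8+CX3CR1-, 2659 on CD4+ and 1582 on DN, a range of 29.5-fold. No further probe set of Dennd3 passed the floor, so its values had no such check. Evi5, a TBC-domain protein, was 1082, 258, 522 and 488. Rab11fip5, an effector of Rab11, was 669, 121, 183 and 158, so that here CD8+CX3CR1+ stood apart from the 3 others, by 5.52-fold from CD8+CX3CR1-; its further probe set gave the same direction.

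By class, 13 of 37 detected exchange factors, 12 of 34 GTPase-activating proteins, 10 of 43 effectors and 1 of 7 escort, GDI and prenylation genes had a 2-fold range. The last was Chm, the escort protein that hands new Rabs over for lipid attachment, at 572, 254, 612 and 446. Counted by pair, 3 of the 121 were at least 4-fold higher on CD8+CX3CR1+ than on CD8+CX3CR1- and 0 lower, with 11 higher and 8 lower at 2-fold (9.09% and 6.61%, against 7.72% and 5.81% of all genes). Against CD4+, CD8+CX3CR1- was 2-fold higher for 10 and lower for 11 (8.26% and 9.09%, against 6.78% and 9.11%). Against DN it was higher for 6 and lower for 6 (4.96% each, against 4.75% and 6.17%). CD8+CX3CR1+ was 2-fold higher than CD4+ for 5 and lower for 7 (4.13% and 5.79%, against 4.47% and 4.89%), and higher than DN for 4 and lower for 1 (3.31% and 0.826%, against 2.97% and 2.93%). CD4+ was higher than DN for 5 (4.13%, against 4.34%) and lower for 0 (3.23% of all genes). Most of these shares lay near the background. At 4-fold these pairs held 1 each for CD8+CX3CR1- with CD4+ and with DN (Dennd3) and for CD8+CX3CR1+ with DN (Rab11fip5), and 0 for the others.

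Some regulators of members described above were singled out after their values were seen. Hps4, a subunit of the exchange factor of Rab32 and Rab38, was 837 on CD8+CX3CR1+, 1395 on CD8+CX3CR1-, 447 on CD4+ and 658 on DN. Its top array was that of Rab32, but the next was CD8+CX3CR1+, where Rab32 was lowest. Rab38 was lowest on CD8+CX3CR1- at the probe set used. Unc13d, an effector of Rab27 in granule release, was 208, 57.5, 139 and 180, lowest on CD8+CX3CR1-. That lowest value is under the CD8+CX3CR1- array's own background percentile of 62.6. Neither Hps4 nor Unc13d had a further probe set above the floor. Rab11fip4, another effector of Rab11, was 142, 484, 309 and 184, opposite to Rab11fip5 for the CD8+ arrays and with the same top array as Rab11a.

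**Figure D4:**
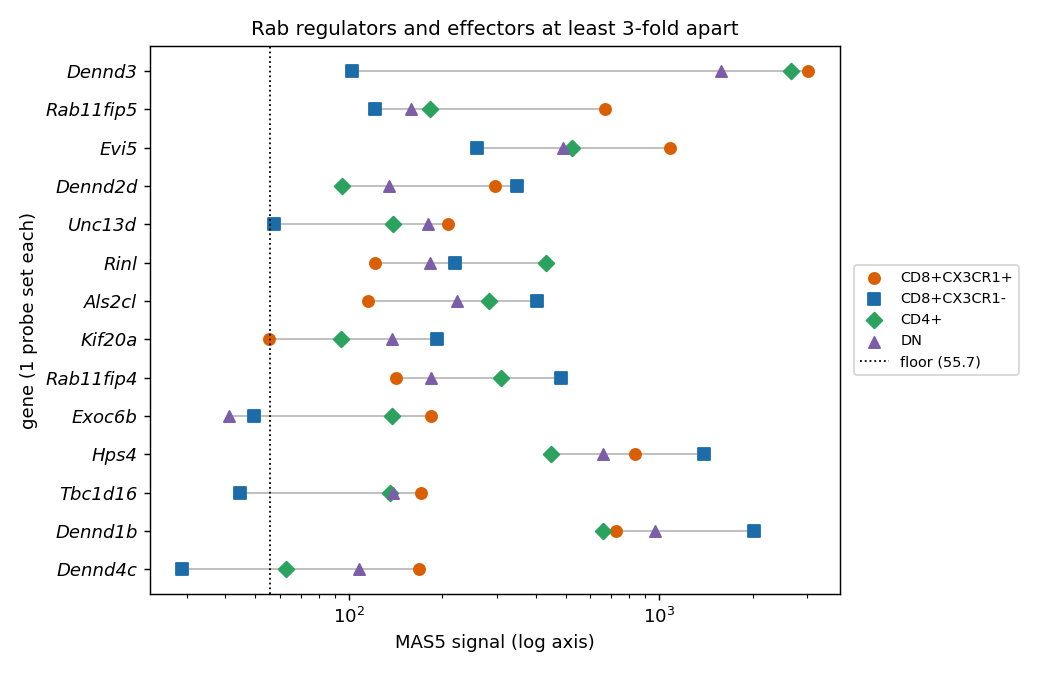
MAS5 signal (log axis) of the Rab regulators and effectors with a range of at least 3-fold; each marker is 1 array and the dotted line is the floor of 55.7. Dennd3 spans 102 (CD8+CX3CR1-) to 3023 (CD8+CX3CR1+), and Hps4 is highest on CD8+CX3CR1- (1395).

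For a gene measured by several probe sets above the floor on both arrays, the standard deviation of its log2 difference over them had a median of 0.29 to 0.39 over all genes, depending on the pair, and of 0.25 to 0.38 over the 16 to 19 members with such probe sets. This covers probe error and not the spread between mice or sorts. Rab2a, Rab5b and Rab6b, with ranges of 2.08-fold, 2.57-fold and 3.92-fold, changed order with the probe set, as did Rab2b and Rab3d. Rab5a, Rab13, Rab19, Rab32, Rab33b and Rab39 have 1 probe set each, so their orders had no such check. Rab8b and Rab27a had none either, since no further probe set of theirs passed the floor.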

How the data were processed

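The deposited table holds intensity values (signal) for 45101 probe sets on 4 arrays, made by the authors with MAS5 per the submitters' processing notes; the sources used here give no version or scale target. Values are linear, and their mean after trimming was 150 on each array. Probe sets with 1 symbol (34945) were named from the platform's annotation; 932 had several symbols and 9160 none. The identifiers of all 59 members stand in the RefSeq gene table. The floor, 55.7, is the 90th percentile of 127 probe sets of odorant, vomeronasal and taste receptor and Krtap genes; on single arrays it was 46 to 62.6. Values under it were raised to it, and a fold against such a value is given as "at least". Calls used 2-fold and 4-fold, with no test.

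Members and lists were chosen with earlier results of these data known. Members past 2-fold over the arrays are given in full, and regulators past 4-fold are named. Of the 49 detected members, 12 are read at probe sets marked _x, _s or _a, which can match related transcripts. Counting was tested on simulated data. Alternatives were 2 scalings, 3 floors, 2 choices of probe set and 2 added after seeing the data. Python 3.11.15, pandas 2.3.3 and numpy 2.4.6 were used.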

Additional observations from a re-analysis of the deposited data

How the results depend on the processing

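Counts past a fold and medians were recomputed under 7 alternatives and with each array's own floor, and the ranges also without the CD4+ array. Of 219 values, 180 stayed within 1.5 times the count or within the probe set spread of the median, and 39 did not, 20 of them with no floor, where low signals enter as they are. For medians that limit was 0.29 to 0.39, wider than the medians themselves (-0.15 to 0.17). Staying within it therefore says little about them. Between the CD8+ arrays, a move from 0.00 to -0.32 with each array's own floor still counted as within the limit. With no floor, members 4-fold apart numbered 10 (CD8+CX3CR1+ with CD8+CX3CR1-), 4 (with CD4+) and 10 (with DN), and 7, 7 and 7 in the other pairs; at 2-fold they were 15, 16, 18, 22, 16 and 12; regulators 4-fold apart were 12, 10, 8, 9, 10 and 9; and ranges passed 4-fold for 17 members and 2-fold for 35. With the floor at the 75th percentile, 4-fold counts were 1 (CD8+CX3CR1+ with CD4+), 3 (CD8+CX3CR1- with DN) and 2 (CD4+ with DN), 9 members were 2-fold apart and 2 regulators 4-fold apart between CD8+CX3CR1+ and DN, and 6 ranges passed 4-fold. At the 95th percentile the 4-fold count of CD8+CX3CR1+ with DN was 1. Equal-median scaling gave medians of 0.42 (CD8+CX3CR1+ with CD4+) and 0.63 (CD8+CX3CR1- with CD4+), 6 members 2-fold apart between CD4+ and DN, and 1 and 2 regulators 4-fold apart in the pairs of CD4+ with the CD8+ arrays. Quantile normalization gave 1 member 4-fold apart between CD8+CX3CR1+ and CD4+, and 2 regulators between CD8+CX3CR1- and CD4+. With probe sets averaged, 4-fold counts were 1 (CD8+CX3CR1+ with DN) and 0 (CD4+ with DN), with 0 regulators in the first. Without _x, _s and _a probe sets, CD8+CX3CR1+ and DN were 2-fold apart for 3 members and 4-fold for 0 regulators.

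The causes were not tested. Of the 19 members with a 2-fold range, 10 kept it in all 8 settings over 4 arrays (Rab5a, Rab6b, Rab7b, Rab11a, Rab13, Rab19, Rab32, Rab33b, Rab39 and Rab43), although with probe sets averaged Rab6b was highest on CD8+CX3CR1+ in place of CD4+, and 9 fell under it in 1 or 2. Among the 10, Rab5a, Rab13, Rab19, Rab32, Rab33b and Rab39 have 1 probe set each. The 2 choices of probe set could therefore not move their ranges. Rab5a and Rab33b also lay above every floor on all 4 arrays, so that only the scalings could move theirs. The range of Rab7b ran from 16.8-fold to 111-fold and that of Rab32 from 13.3-fold to 23.6-fold. Those highest on CD8+CX3CR1- numbered 9 to 13 in these settings. The shares of all detected genes past these folds, or highest on that array, were not computed in these settings. The counts given here and above therefore do not show whether Rab genes exceeded all genes in them. No paired analysis was possible because each subset has 1 array.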

Other observations

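Probe sets other than those used gave further orders among Rab genes with a range under 2-fold. A further probe set of Rab22a, an early endosome Rab, read 224 on CD8+CX3CR1+, 87.9 on CD8+CX3CR1-, 188 on CD4+ and 225 on DN, so that CD8+CX3CR1- was the low array, whereas the probe set used read 221 there and 158 on CD8+CX3CR1+. One of Rab14 read 154, 121, 223 and 277, with DN high. A second probe set of Rab11b had a range of 2.41-fold, from 145 on CD4+ to 350 on CD8+CX3CR1-, the same lowest and highest arrays as at the probe set used. One of Rab24 was 148, 115, 103 and 210, with DN high where the probe set used was highest on CD4+ (461). The second probe set of Rab7 was highest on CD8+CX3CR1- (365 against 247 to 299), as was the one used.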
